A study of Mus musculus with 40 samples.

Results

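The genes described are 34 markers of macrophages and related myeloid cells, measured in B16F10 mouse melanoma grown in culture and as tumours. Each was read from the probe set that names it alone and has the highest mean over the 40 arrays, and all 34 were found among 17097 named genes. The series asks how epigenetic drugs alter a melanoma and its surroundings. B16F10 is an established melanoma line of C57black6J mice, and its tumours were grown under the skin of mice of that strain, injected at 8 weeks of age. The drugs were OTX015, an inhibitor of the BET proteins that read acetylated histones, given to cells in culture or to mice by mouth, and guadecitabine, an inhibitor of DNA methylation, given into the abdomen.

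The arrays comprised 4 untreated and 4 OTX015-treated cultures, 11 untreated and 10 OTX015-treated tumours, and, in an experiment of its own, 5 untreated and 6 guadecitabine-treated tumours. Dose, duration of treatment and sex do not appear in the labels. The labels name melanocytes as the cell type of the tumour samples and mention no sorting. All 10 melanocyte markers measured had a group mean above background in every tumour group, so tumour cells made up part of every group, and the 34 genes were read in bulk RNA.

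Macrophages arise from blood monocytes or from cells seeded before birth, and they need the receptor Csf1r, which binds the growth factor CSF1, to survive. The transcription factor PU.1, encoded by Spi1, switches on many of their genes by binding purine-rich sites close to the start of transcription. In tumours they engulf debris, take up lipids and can restrain or help other immune cells. Several of the 34 genes are not particular to macrophages: Ptprc (CD45), Cd53, Coro1a and Laptm5 are made by most leukocytes, and Apoe and Lgmn by many cell types.

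Because PU.1 is itself among the 34, the RefSeq promoter windows (assembly GRCm38.p6, 250 bases before to 50 after a start) were searched for its core box GAGGAA on both strands, with no other motif searched. Windows were found for 23 of the 34 genes, and 16 of these (69.6%) held the box in at least 1 window. Among all 13605 array genes with a window the share was 30.5%. Counted by window, 18 of 31 member windows (58.1%) held the box, against 28.3% of all 32851 windows of that length. A match is a description and does not show that PU.1 bound there. Shown are the 100 bases before the start of the 4 genes that were lower in OTX015-treated tumours and have a box within 50 bases before it. The box is in capitals, and TTCCTC is the same box read on the opposite strand.
Cd53 (chr3:106790150-106790249, minus strand): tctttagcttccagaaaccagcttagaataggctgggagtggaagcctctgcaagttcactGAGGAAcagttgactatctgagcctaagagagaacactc
Laptm5 (chr4:130913216-130913315, plus strand): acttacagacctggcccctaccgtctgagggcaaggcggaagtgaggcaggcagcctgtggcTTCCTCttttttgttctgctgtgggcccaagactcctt
Mrc1 (chr2:14229314-14229413, plus strand): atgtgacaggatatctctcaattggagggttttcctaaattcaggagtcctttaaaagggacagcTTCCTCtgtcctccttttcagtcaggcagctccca
Trem2 (chr17:48346301-48346400, plus strand): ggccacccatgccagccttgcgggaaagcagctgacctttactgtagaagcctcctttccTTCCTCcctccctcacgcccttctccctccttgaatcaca
The box began at position -39 in Cd53, -38 in Laptm5, -35 in Mrc1 and -40 in Trem2, counted from the start. Aif1, Pf4 and Itgam did not pass as lower in OTX015-treated tumours, and they too have a box within 50 bases before the start. It began at position -7 in Aif1 and -8 in Pf4. Whether the box goes with the response to OTX015 was not tested.

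All values are on the log2 scale, so that a difference of 1 is a doubling. A level of 4.46, the 95th percentile of the means of 83 olfactory and vomeronasal receptor probe sets, served as background. By their mean over all arrays, 25 members lay above it, and Itgam, Cd163, Marco, Spi1, Maf, Aif1, Folr2, Nckap1l and Cd84 lay below. In control cells 6 of the 34 had a group mean above background, in OTX015-treated cells 5, in the control tumours of the OTX015 experiment 28, and in each of the other tumour groups 24. The mean of the 34 ranged from 4.03 to 4.09 over the control cultures. It ranged from 5.55 to 6.97 over the control tumours of the OTX015 experiment and from 5.37 to 5.82 over those of the guadecitabine experiment. In bulk samples, fewer cells of a type and less RNA per cell cannot be told apart.

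Arrays differed in ways that touch these values. The mean over all probe sets lay between 4.35 and 4.39 in OTX015-treated tumours and between 4.55 and 4.64 in the other groups, so the OTX015 comparison in tumours was made after quantile normalization. Control tumours 9 and 11 and treated tumour 4 of that experiment had a low spread of values. The mean of Malat1, Neat1 and Kcnq1ot1, RNAs kept in the nucleus, ranged from 5.13 to 5.98 in OTX015-experiment controls and from 6.67 to 8.43 in guadecitabine-experiment controls.

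**Figure D1:**
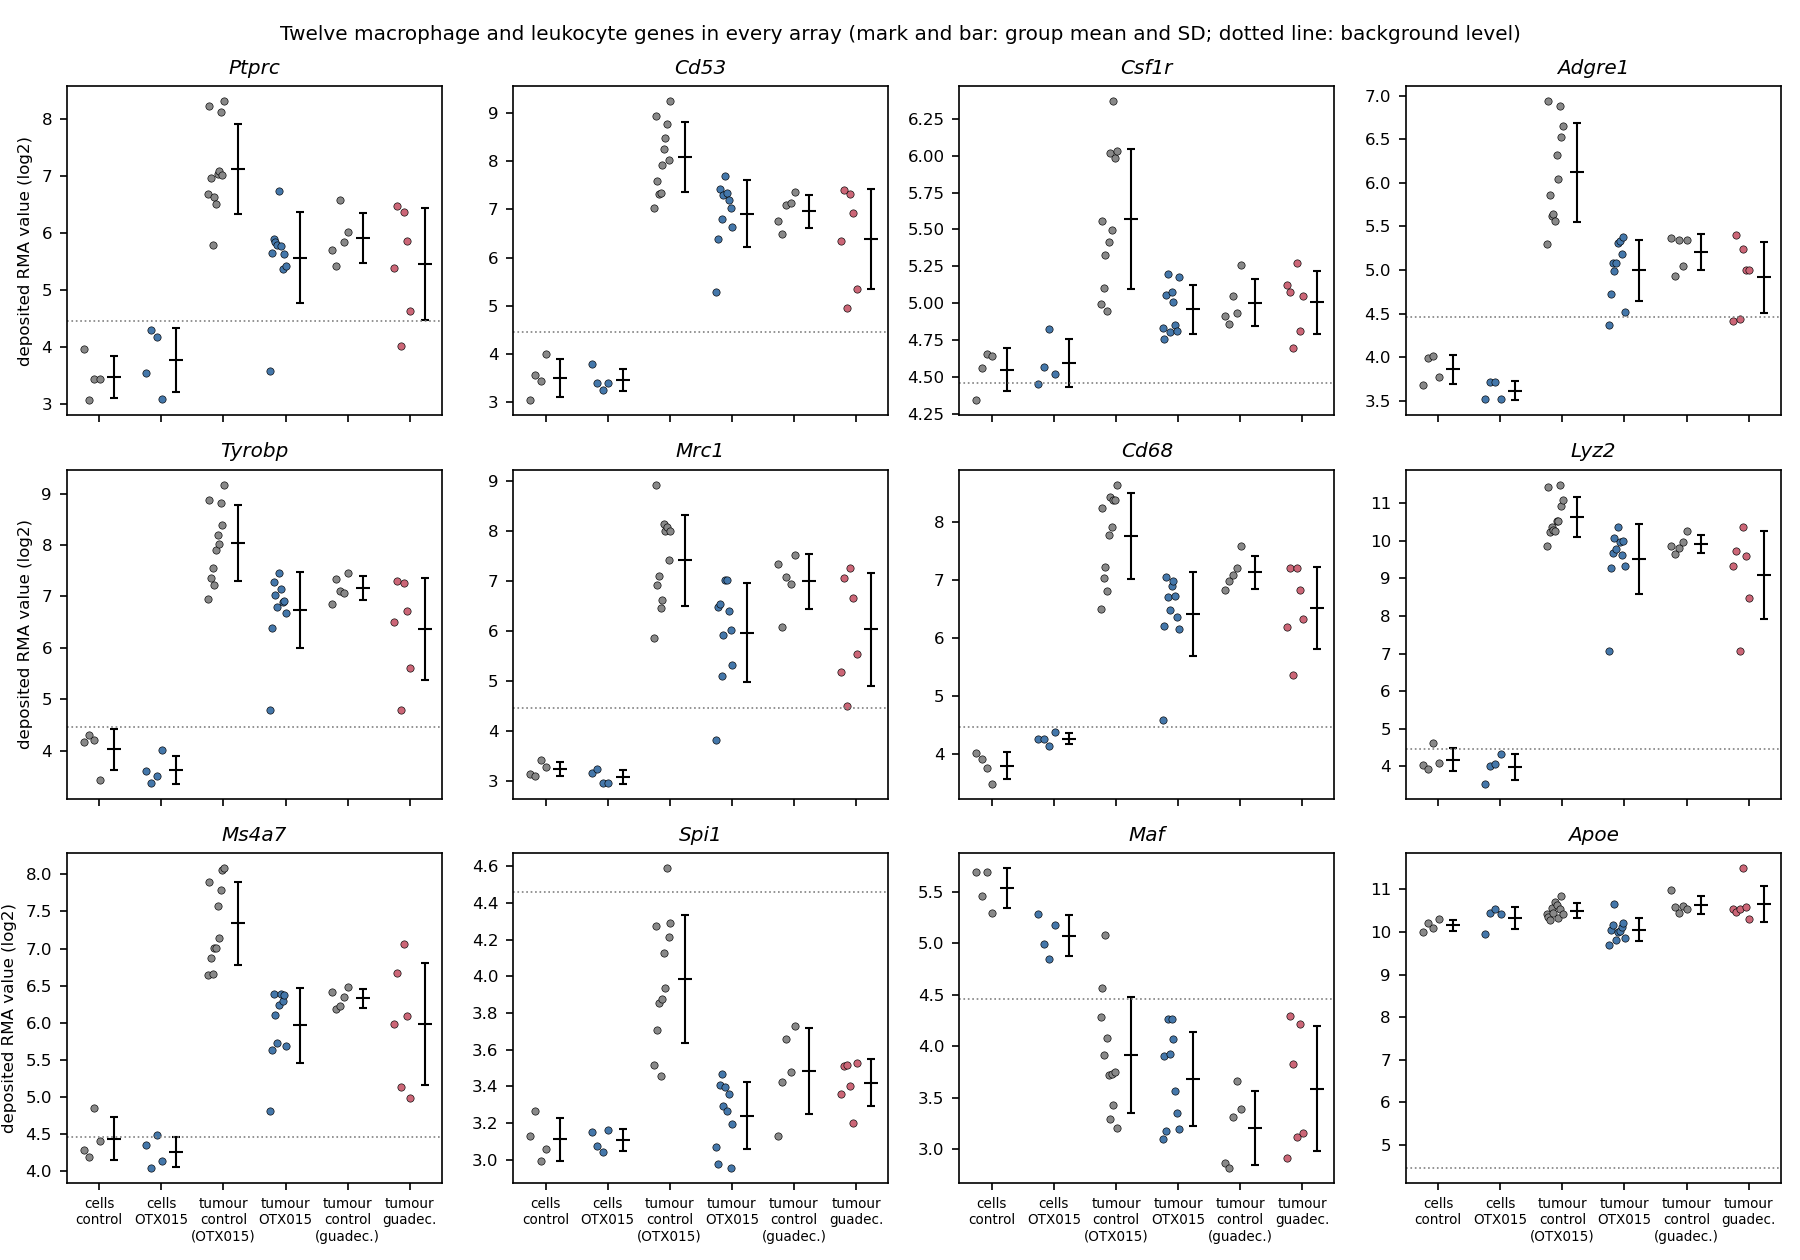
Deposited RMA values (log2, vertical axis) of 12 members in every array, by group (horizontal axis). Points are arrays, the mark and bar are the group mean and SD, and the dotted line is the background level of 4.46. Lyz2 lies between 3.94 and 4.63 in control cells and between 9.85 and 11.49 in the control tumours of the OTX015 experiment, while Maf runs the opposite way.

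The first comparison asks which of these genes the tumours carry beyond the melanoma cells in culture. In the control tumours of the OTX015 experiment, 31 of the 34 members were higher than in control cells, against 21.8% of all genes, and 1, Maf, was lower, against 29.4% of all genes (limma, adjusted p under 0.05). The median difference of the members was 2.13, and that of all genes was 0.01. Markers of other cell types were higher in the same tumours, among them both erythroid genes measured, by a median of 5.33, and 3 of 9 fibroblast genes, of which 2 others were lower. For 30 members the lowest tumour lay above the highest culture, which held for 10.2% of all genes.

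All 7 leukocyte-wide genes were higher. Ptprc, the CD45 phosphatase of nearly all leukocytes, read 3.97, 3.06, 3.45 and 3.43 in the control cultures and from 5.79 through a median of 7.01 to 8.32 in the tumours. No tumour reached down to the cultures, and the difference was 3.65 (SE 0.35, adjusted p 6.97e-08 by limma). Cd53, a tetraspanin of leukocyte membranes, was higher by 4.57 (SE 0.32), and Plek, a substrate of protein kinase C, by 3.34 (SE 0.24). Coro1a, an actin-binding protein of leukocytes, was higher by 2.61 (SE 0.35). The differences of Laptm5, Nckap1l and Cd84 lay between 1.57 and 1.64.

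The 3 receptors tied to macrophage growth and identity were higher as well, by unequal amounts. Adgre1, the classical surface antigen of mouse macrophages, read 3.68, 3.99, 4.02 and 3.77 in control cultures and 5.30 to 6.94 in tumours, with a median of 6.05. Every tumour lay above every culture, with a difference of 2.25 (SE 0.24, adjusted p 3.33e-07 by limma). Csf1r read 4.34, 4.56, 4.65 and 4.64 in cultures and from 4.95 through 5.50 to 6.37 in tumours. The groups did not overlap, and the difference was 1.02 (SE 0.20, adjusted p 0.000398 by limma). Mertk, a receptor for the engulfment of dying cells, differed by 0.74 (SE 0.13).

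Of the 7 scavenger and lipid receptors, 6 were higher. Cd163 was among them although it lay below background in every array, and Folr2 lay above background in 6 of the 11 tumours. Mrc1, the mannose receptor CD206, read 3.14, 3.11, 3.43 and 3.29 in cultures and from 5.86 through 7.43 to 8.93 in tumours, a difference of 4.17 (SE 0.40, adjusted p 5.90e-08 by limma). Cd68, a glycoprotein of macrophage lysosomes, was higher by 3.95 (SE 0.32). Msr1, the class A scavenger receptor, differed by 2.06, and Trem2, a lipid-sensing receptor, by 1.71. Marco differed by 0.34 (SE 0.14, adjusted p 0.0517 by limma), and it lay below background in every array.

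Among receptors for microbial products, Cd14, the co-receptor for bacterial lipopolysaccharide, was higher by 3.88 (SE 0.25). The lectins Clec7a and Clec4n, which bind fungal sugars, were higher by 2.61 and 2.20. Tyrobp, the DAP12 adaptor through which Trem2 signals, differed by 4.02 (SE 0.32). The integrin chains Itgam (CD11b) and Itgax (CD11c) differed by 0.81 and 0.76, and Itgam lay below background in 10 of the 11 tumours. Ms4a7 and Ms4a6d, membrane proteins of myeloid cells, were higher by 2.90 and 3.96.

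Lyz2, the lysozyme of myeloid cells, showed the largest difference of the 34. It read 4.04, 3.94, 4.63 and 4.10 in control cultures and from 9.85 through 10.51 to 11.49 in the tumours, a difference of 6.45 (SE 0.24, adjusted p 2.08e-14 by limma). The mean of the cultures, 4.18, was not above background, so the size of this difference has no measured lower level. Its probe set may also detect the near-identical Lyz1. Pf4, a chemokine made by platelets and some macrophages, was higher by 4.18 (SE 0.35). Arg1, an arginine-degrading enzyme, was higher by 3.20 (SE 0.66) and ranged from 3.60 to 8.68 over the tumours, so that it overlapped the cultures. Apoe stood at 10.15 in cultures and 10.50 in tumours, a difference of 0.35 (SE 0.10). The cysteine protease Lgmn, at 7.95 and 8.24, did not pass the test (difference 0.29, SE 0.14, adjusted p 0.0811 by limma).

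The 2 transcription factors went opposite ways. Spi1 differed by 0.87 (SE 0.16, adjusted p 0.000189 by limma), although only 1 tumour of the 11 lay above background. Maf read 5.69, 5.46, 5.69 and 5.29 in cultures, all above background, and from 3.21 through 3.75 to 5.08 in tumours, a difference of -1.62 (SE 0.25, adjusted p 3.13e-05 by limma).

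The control tumours of the guadecitabine experiment, set against the same 4 cultures, had 25 members higher, against 7.95% of all genes, and again Maf lower, against 25.9% of all genes, by -2.32 (SE 0.29). The median difference was 0.99, and that of all genes was -0.07. The erythroid genes Hba-a1 and Alas2 were higher here too, by 5.96 and 3.43, as were 3 of 9 fibroblast genes, of which 1 other was lower. Lyz2 read 9.87, 9.64, 9.81, 9.96 and 10.26 there, Mrc1 7.33, 6.08, 7.08, 6.94 and 7.52, and Cd68 6.82, 6.98, 7.07, 7.19 and 7.57. These 3 genes lay above every culture, with differences of 5.73, 3.75 and 3.33. Csf1r, at 4.91, 4.86, 5.05, 4.94 and 5.26, lay above every culture too, but its difference of 0.45 (SE 0.23) had an adjusted p of 0.154 by limma. Of the 26 members that passed, 21 did so in every fit without 1 array. Only 16 also passed under every alternative that tested them at the same threshold. Further probe sets of Cybb (0.30 and 0.19), Laptm5 (0.34) and Cd84 (0.24) did not pass here, while that of Clec4n did (1.63).

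**Figure D2:**
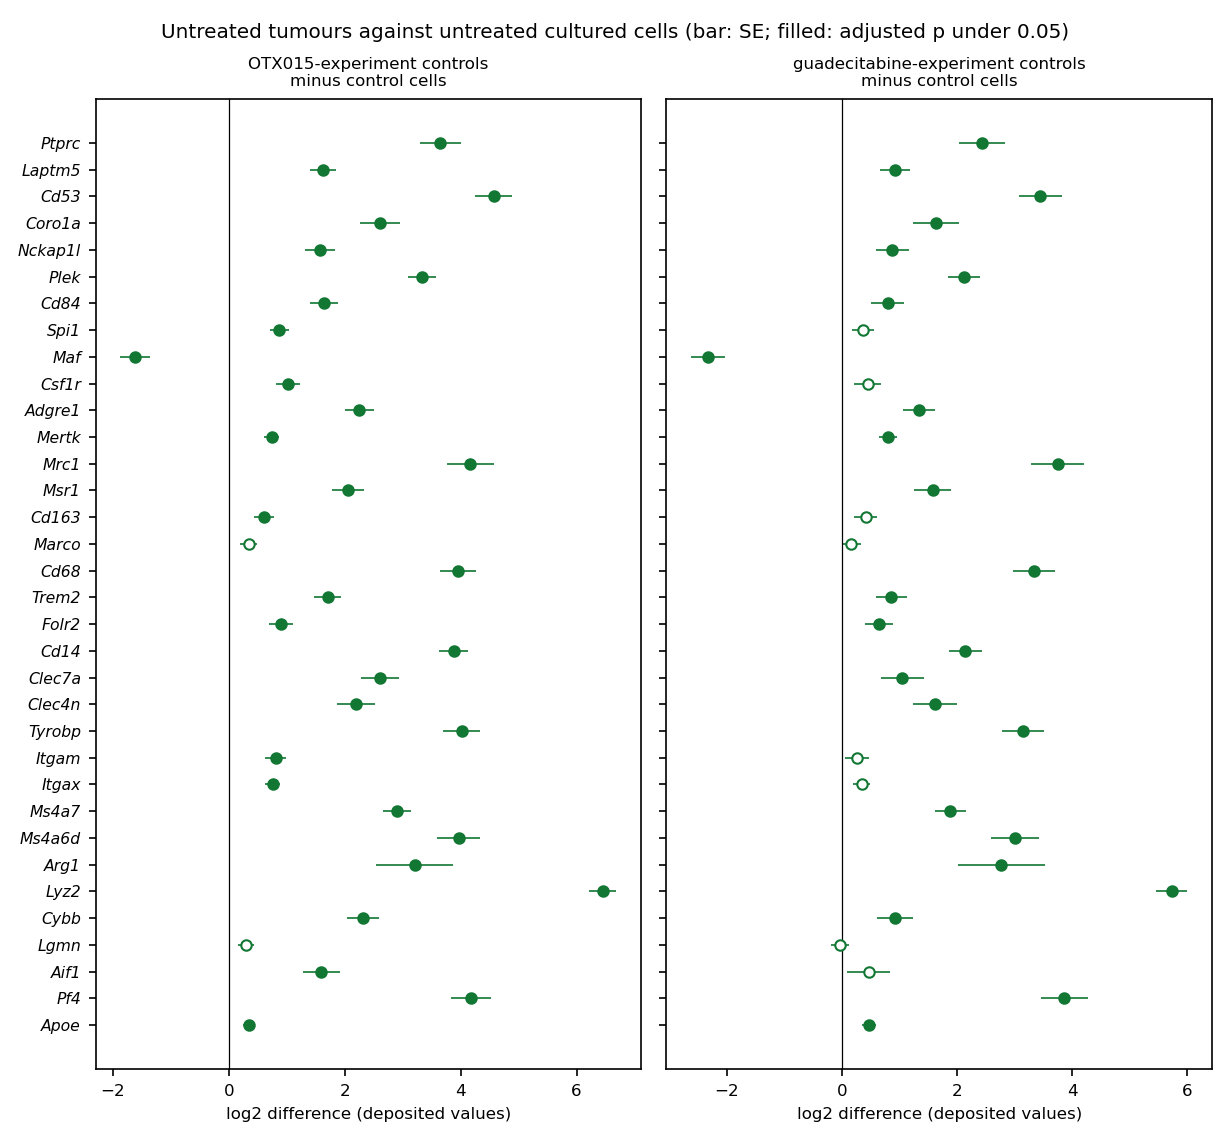
Log2 difference (horizontal axis) of control tumours minus control cells for the 34 members (vertical axis), for the OTX015 experiment on the left and the guadecitabine experiment on the right. Bars are the SE and filled points have an adjusted p under 0.05. Maf is the 1 member to the left of 0 among the filled points of both panels.

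Other macrophage genes followed on the same arrays. Of 36 measured, 29 were higher and 3 lower in the OTX015-experiment controls, with a median of 0.83. Ctss, a lysosomal protease of antigen-presenting cells, was higher by 6.42, and the complement genes C1qa and C1qb by 4.87 and 5.10. Cebpb, a myeloid transcription factor that other cells also make, was lower by -0.84. Markers of other immune cells were higher as well. Of 12 T and NK cell genes 8 were higher with a median of 0.37, and of 4 dendritic cell genes 2 with a median of 0.29. Only 1 of the 12 and 2 of the 4 had a group mean above background in these tumours. Of 8 neutrophil genes 6 were higher with a median of 0.46, and S100a9 among them by 3.17. The lists were not tested against each other, and the part of these cell types in the members' differences was not tested. None of 4 B cell genes passed (limma), and all 4 had group means below background.

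The tumours of both control groups were not alike. With the guadecitabine-experiment controls compared with the OTX015-experiment controls, 22 members were lower, against 24.6% of all genes, and 0 higher, against 11% of all genes, with 0 also at an unadjusted p under 0.05, against 13.3% of all genes (limma). The median difference was -0.69, and that of all genes was -0.12. Cd14 read 5.68, 5.32, 6.00, 6.25 and 6.06 in the guadecitabine-experiment controls and from 6.42 through 7.43 to 8.42 in the others. The groups did not overlap, and the difference was -1.73 (SE 0.23, adjusted p 1.98e-05 by limma). Ms4a7 and Plek also did not overlap, with differences of -1.01 and -1.22, against 3% of all genes that were lower without overlap.

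By role, all 7 leukocyte-wide genes, both MS4A genes and all 3 of Tyrobp, Itgam and Itgax were lower, but 1 of 7 scavenger and lipid receptors, Trem2 at -0.85. Mrc1 differed by -0.42 (SE 0.37) and Mertk by 0.06 (SE 0.12), and neither passed. All 3 nuclear-retained RNAs were higher in the guadecitabine-experiment controls, by a median of 2.76, and their mean did not overlap between the groups. With their level as a covariate, 0 members were called and Csf1r, Tyrobp, Trem2 and 5 others turned positive. With the replicate number as a block, 7 were called. Experiment and group cannot be told apart here.

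In cultured cells, most of these genes lay near background with and without OTX015. Of the 34, 1 was higher, against 17% of all genes, and 2 were lower, against 21.8% of all genes. All 3 nuclear-retained RNAs were higher with OTX015, by a median of 1.23 and without overlap. Cd68 read 4.03, 3.91, 3.77 and 3.49 without and 4.27, 4.27, 4.15 and 4.38 with OTX015, all below background, a difference of 0.47 (SE 0.11, adjusted p 0.00385 by limma). Coro1a read 4.09, 3.85, 4.25 and 4.32 without and 3.59, 3.55, 3.64 and 3.52 with the drug, also below background, a difference of -0.55 (SE 0.10). Maf read 5.69, 5.46, 5.69 and 5.29 without and 5.29, 4.99, 4.84 and 5.17 with it, above background in every culture and lower by -0.46 (SE 0.12). None of the 3 calls remained when all 6 groups shared 1 fit or with the nuclear-retained RNAs as a covariate, which left 208 of 6635 calls over all genes, and drug and covariate cannot be told apart here. The count was 5 without treated culture 1 or treated culture 4.

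In tumours, the question is whether a drug given to the mouse changes these genes. OTX015-treated tumours had 16 members lower, against 7.49% of all genes, and 0 higher, against 8.67% of all genes, with 0 higher also at an unadjusted p under 0.05, against 15.1% of all genes (limma). The median difference was -0.67, and that of all genes was 0.01. The difference was negative for 32 of the 34, against 48.6% of all genes, with Cd163 at 0.09 and Maf at 0.00 as the others. For none of the 34 did the groups separate without overlap, against 0.55% of all genes that did so as lower. These controls are the ones that stood high against cells and against the other controls, so the comparisons share their values.

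**Figure D3:**
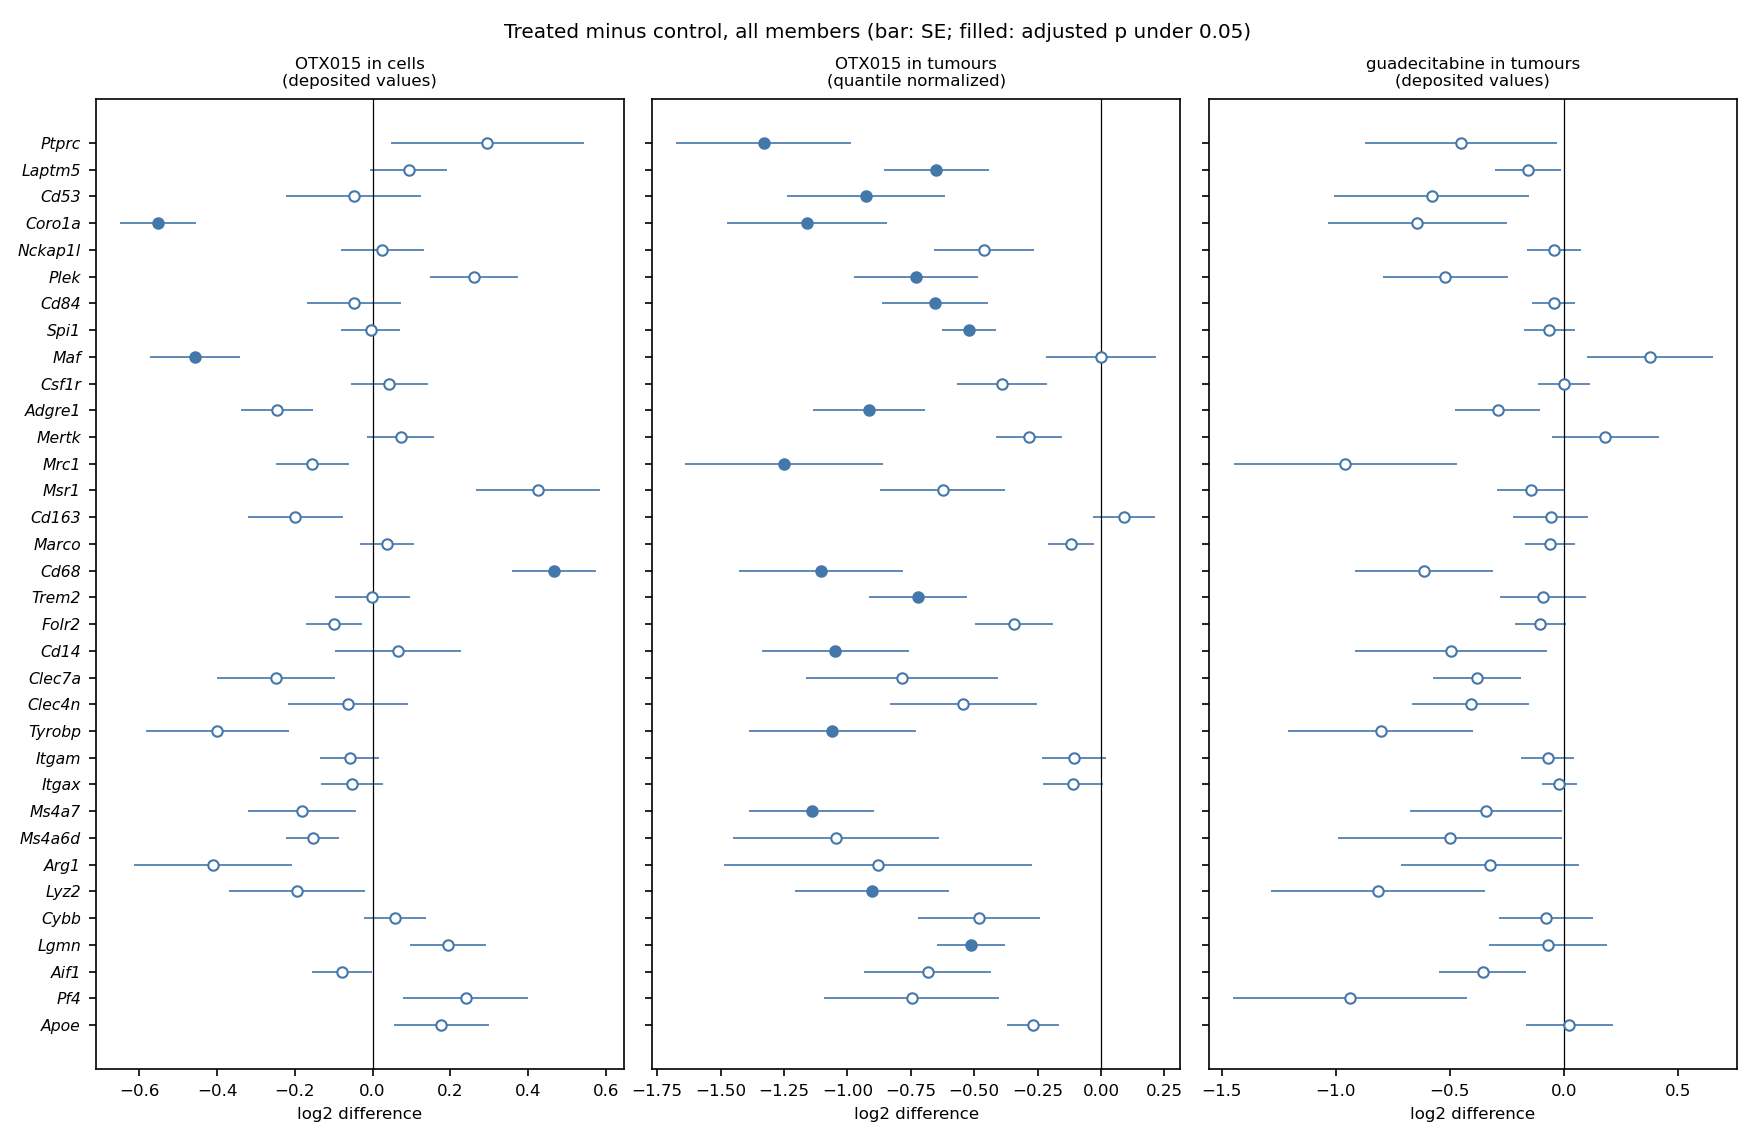
Log2 difference (horizontal axes, each with its own scale) of treated minus control samples for the 34 members, for OTX015 in cells, OTX015 in tumours after quantile normalization and guadecitabine in tumours. Bars are the SE and filled points have an adjusted p under 0.05. In the middle panel 16 filled points lie left of 0, and the right panel has none.

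Of the 7 leukocyte-wide genes, 6 were lower. After quantile normalization Ptprc ranged from 5.75 through 6.84 to 8.55 in control tumours and from 3.69 through 5.77 to 6.81 in treated tumours. All 10 treated tumours lay below the mean of the controls, although the groups overlapped, and the difference was -1.33 (SE 0.34, adjusted p 0.0102 by limma). Coro1a was lower by -1.16 (SE 0.32), Cd53 by -0.93 (SE 0.31), Plek by -0.73 (SE 0.24), Cd84 by -0.66 (SE 0.21) and Laptm5 by -0.65 (SE 0.21). Nckap1l, a regulator of the actin skeleton in blood cells, differed by -0.46 (SE 0.20, adjusted p 0.116 by limma).

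Spi1 showed the smallest p of the 34. It ranged from 3.40 through 3.86 to 4.45 in control and from 3.08 through 3.42 to 3.54 in treated tumours, a difference of -0.52 (SE 0.11, adjusted p 0.00153 by limma). All of these values lie below background. Of the identity receptors, Adgre1 fell by 0.91 (SE 0.22, adjusted p 0.00635 by limma), from a control range of 5.10 to 7.04 to a treated range of 4.53 to 5.49. Csf1r did not pass, with a median of 5.32 in control and 5.07 in treated tumours and a difference of -0.39 (SE 0.18, adjusted p 0.147 by limma). Mertk differed by -0.28 (SE 0.13).

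Among scavenger and lipid receptors, 3 of 7 were lower. Mrc1 ranged from 5.61 through 7.37 to 8.83 in control and from 3.95 through 6.25 to 7.08 in treated tumours, a difference of -1.25 (SE 0.39, adjusted p 0.0317 by limma). Cd68 was lower by -1.10 (SE 0.32), the opposite sign to its difference in cells. Trem2 was lower by -0.72 (SE 0.19). Msr1, Folr2 and Marco differed by -0.62, -0.34 and -0.12 and did not pass.

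Cd14 was lower by -1.05 (SE 0.29), while Clec7a and Clec4n differed by -0.79 and -0.54 without passing. Tyrobp was lower by -1.06 (SE 0.33) and Ms4a7 by -1.14 (SE 0.25, adjusted p 0.00269 by limma). Ms4a6d, at -1.04, had a larger SE of 0.41 and did not pass. Lyz2 was lower by -0.90 (SE 0.30, adjusted p 0.0450 by limma), with control tumours between 9.65 and 11.47 and treated tumours between 7.24 and 10.43. Lgmn was lower by -0.51 (SE 0.14). Arg1, Aif1, Pf4, Cybb and Apoe differed by -0.88, -0.68, -0.75, -0.48 and -0.27 and did not pass.

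Of the 16 calls, 8 held in all 21 fits that left out 1 tumour and under every alternative that tested them at the same threshold: Adgre1, Cd14, Ms4a7, Ptprc, Trem2, Spi1, Lgmn and Coro1a. At an adjusted p under 0.01, 3 members were called. The count fell to 9 without control tumour 2 or control tumour 9, and to 10 without control tumour 11, treated tumour 1 or treated tumour 2. It was 10 without the 3 arrays of low spread and 31 on the deposited values. Those values lay lower over all probe sets in treated tumours, so the 31 is not a result about the members alone.

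Some genes have further probe sets. With OTX015 in tumours, those of Plek were lower by -0.90 and -0.44, and those of Coro1a gave -0.77 and -0.05 and that of Trem2 -0.12 without passing. For 3 genes whose chosen probe set did not pass, others did: Cybb at -0.43 and -0.41, Nckap1l at -0.62, and Msr1 at -0.87 and -0.47. The call of Cd84 depended on the probe set, since its dimmer one was higher by 0.50 (SE 0.07, adjusted p 1.98e-05 by limma). Dimmer probe sets of Cd53, Ms4a7 and Ms4a6d gave 0.15, 0.06 and 0.03 and did not pass. For OTX015-experiment controls against cells, the other probe set of Trem2 gave 0.20 (SE 0.11, adjusted p 0.157 by limma). The dimmest probe sets of Cd53, Coro1a, Ms4a7 and Ms4a6d gave 0.006, 0.10, -0.03 and 0.13 there and did not pass. All remaining further probe sets passed as higher in that comparison.

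Of the 36 other macrophage genes, 9 were lower and 0 higher, with a median of -0.28. Fcrls, an Fc receptor-like gene, was lower by -1.40 (SE 0.17) with no overlap between groups, Ly86 by -1.06 and Cebpb by -0.90. Among 12 T and NK cell genes 2 were lower, Cd3g at -0.31 and Cd3d at -0.22, both below background. Of 4 B cell genes 1 was lower, and of 4 dendritic cell genes 1 was higher. Of 8 neutrophil genes 1, Mpo, was higher by 0.27, and of 10 melanocyte genes 1, Tyr, was higher by 0.36. Over all genes 8.67% were higher and 7.49% lower. Of 9 fibroblast genes 1 was higher, Lum, a matrix proteoglycan, by 1.17. The mean of the 3 nuclear-retained RNAs lay between 5.02 and 5.92 in control and between 4.98 and 5.79 in treated tumours. The part of these cell types in the members' differences was not tested.

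Tumours differed from each other in the same sense for many members. Of the 25 members above background, control tumour 1 was the lowest of its group in 15 and control tumour 11 the highest in 14. Treated tumour 1 was the lowest of its group in 20. Its values for Ptprc, Cd68, Lyz2, Tyrobp, Ms4a7 and Ms4a6d stood far below the other treated tumours.

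**Figure D4:**
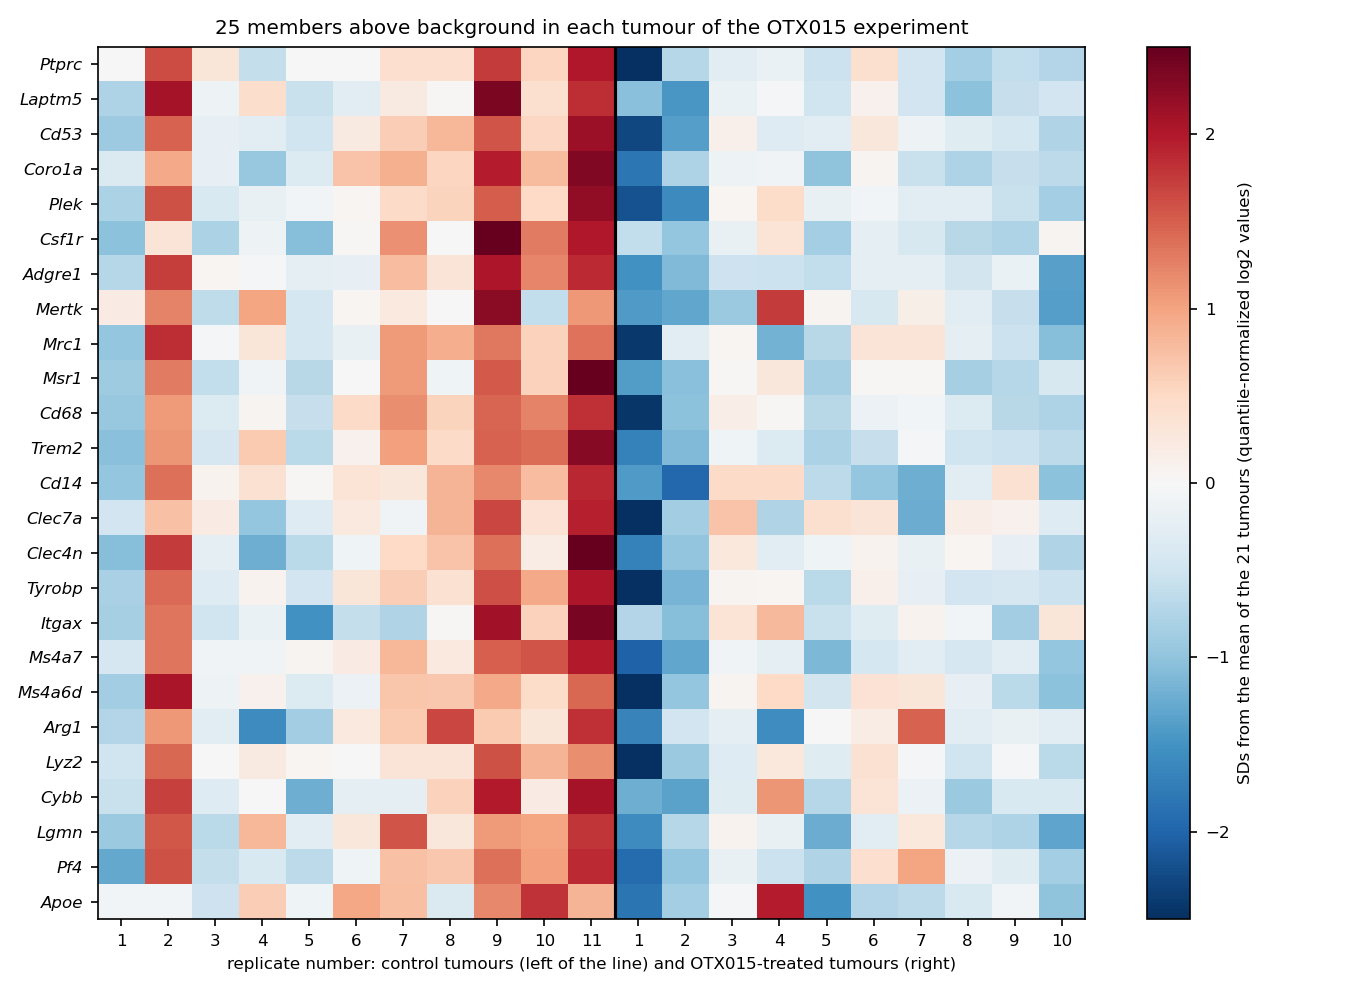
Level of the 25 members above background (rows) in each tumour of the OTX015 experiment (columns, by replicate number), as SDs from the mean of the 21 tumours after quantile normalization. Control tumours 2, 9 and 11 are high in nearly all rows, and treated tumour 1 is low.

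Whether the effect of OTX015 differed between tumours and cells was tested directly. The effect in tumours minus that in cells was lower for 5 members, against 14.6% of all genes, and higher for 0, against 18% of all genes. The share lower was near that of all genes and is no result about the members. It was -1.62 (SE 0.61) for Ptprc, -1.53 (SE 0.55) for Cd68, -0.74 (SE 0.23) for Lgmn, -0.52 (SE 0.19) for Spi1 and -0.48 (SE 0.19) for Apoe. In control cells Ptprc, Cd68 and Spi1 had means below background, and Lgmn and Apoe above it. The count ranged from 1, without control culture 3, to 11, without control tumour 1. It was 2 or 3 without control culture 2 or 4, any of the 4 treated cultures, control tumour 9 or treated tumour 8.

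Guadecitabine changed no gene of the array at an adjusted p under 0.05 (limma), so 0 of the 34 were called, against 0% of all genes. At an unadjusted p under 0.05 none of the 34 passed, whereas 673 genes (3.94%) were higher and 340 (1.99%) lower. The difference was negative for 30 members, against 36.8% of all genes, with a median of -0.22, and that of all genes was 0.04. In the same tumours the 2 erythroid genes had a median difference of -1.06 and the 3 nuclear-retained RNAs one of -1.03, and none of these 5 passed. Mrc1 ranged from 4.50 through 6.11 to 7.25 in treated tumours, overlapping the controls, and differed by -0.96 (SE 0.49, adjusted p 0.828 by limma). Pf4 differed by -0.94 (SE 0.51), Lyz2 by -0.82 (SE 0.47) and Csf1r by 0.00 (SE 0.11). Treated tumour 3 was the lowest of its group in 18 of 25 members and treated tumour 4 the highest in 13. Treated tumours 3 and 6 had the lowest spread over all probe sets in that group, with SDs of 1.88 and 1.89. None of the 36 other macrophage genes passed, with Ccl2, a monocyte-attracting chemokine, at -1.15 (SE 0.41). The part of the erythroid genes, the nuclear-retained RNAs and the array spread in these values was not tested.

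The effect of OTX015 minus that of guadecitabine in tumours was tested as well. None of the 34 passed (limma), while 3.54% of all genes did in either direction. The differences ranged from -0.85 for Ptprc to 0.22 for Pf4. On the deposited values, which lay lower over all probe sets in OTX015-treated tumours, 9 were called.

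The members were then followed between tumours of 1 group, with Csf1r as the anchor. In the 11 OTX015-experiment controls, the median Pearson's r of the other 33 with Csf1r was 0.73, and 32 were positive. Against 9098 other genes above background, the median r of Csf1r was -0.49. The 33 include the 9 members below background, and with members above background alone the median r was 0.69. Spi1 (r 0.94, rho 0.96), Cd68 (r 0.91, rho 0.96), Aif1 (r 0.91, rho 0.87) and Nckap1l (r 0.91, rho 0.94) had the highest r. By rho Cd84, Trem2 and Folr2 were among those ahead of Aif1. Spi1 lay above background in 1 of these 11 tumours and Aif1 in 5. By a permutation test adjusted over the 33 relations, 22 passed by r, all positive, and 29 passed by rho, Maf among them as a negative. The test was not run over the other genes. An r above 0.8 was found for 14 of the 33, members below background among them. It was found for 1.76% of the 9098 other genes, a set without genes below background. Spi1 had a permutation p of 2e-05 (adjusted 0.00066), and its r was 0.89 without the 2 tumours farthest from the median of Csf1r. Maf was the 1 negative, with r -0.61 and rho -0.69 (permutation p 0.0462 and 0.0218, adjusted 0.0584 and 0.0267).

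In the 10 OTX015-treated tumours the median r was 0.36 and in the 6 guadecitabine-treated tumours 0.51, and 0 relations passed in either by r or rho. The 5 guadecitabine-experiment controls were too few. Between all 561 pairs of the 34, the median r was 0.76 in controls, 0.56 with OTX015 and 0.61 with guadecitabine. With Ptprc as the anchor in place of Csf1r, the median r of the other members was 0.78, 0.70 and 0.91. Whether these correlations differ between groups was not tested.

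**Figure D5:**
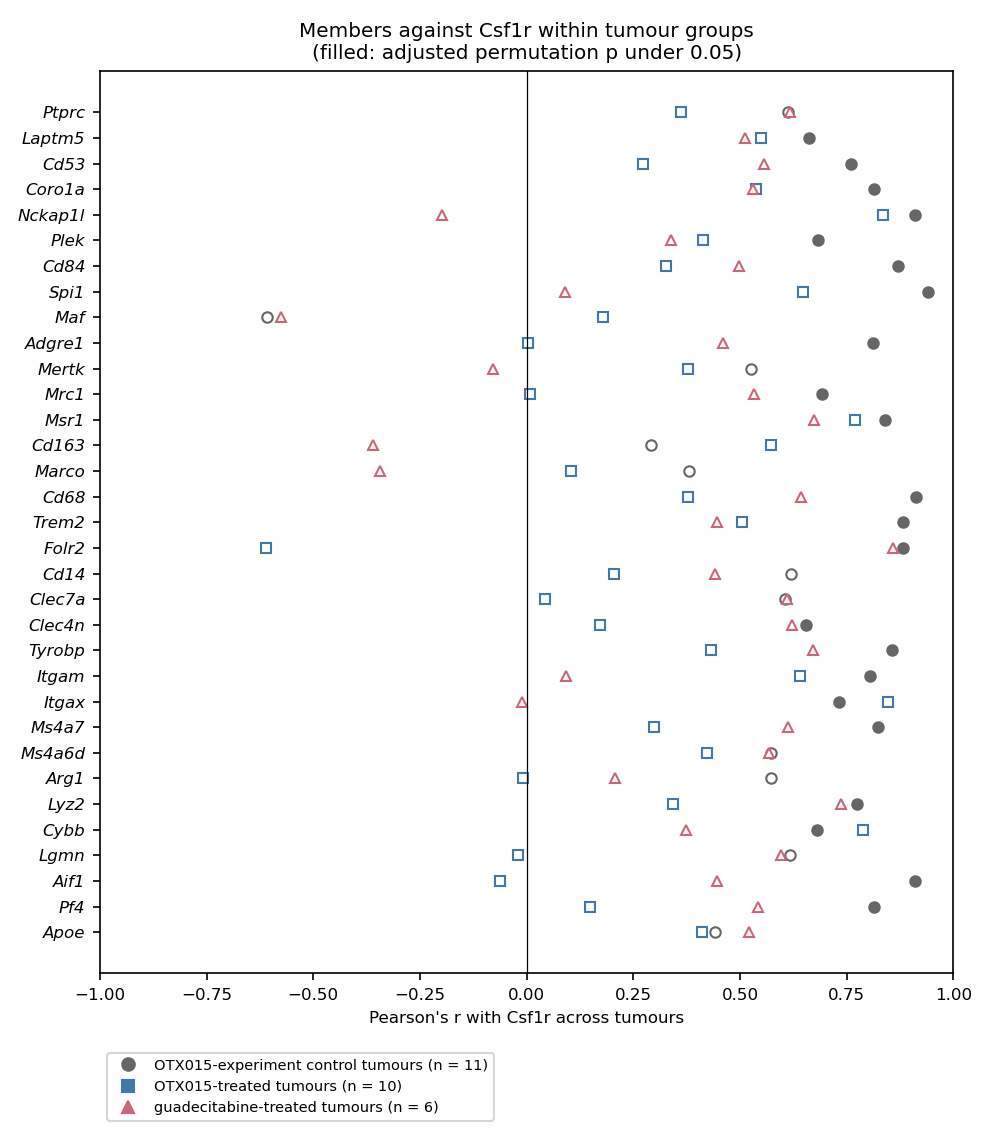
Pearson's r with Csf1r across tumours (horizontal axis) for the 33 other members (vertical axis) in 3 tumour groups. Filled symbols have an adjusted permutation p under 0.05. Most control values lie above 0.5, Maf lies at -0.61, and no symbol of the treated groups is filled.

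The spread of all probe sets of an array moved with Csf1r, with r -0.76 and rho -0.78 in controls (permutation p 0.0052 and 0.0063, adjusted over 30 relations 0.0583 and 0.0788). In OTX015-treated tumours these were r -0.78 and rho -0.85, and in guadecitabine-treated tumours r 0.35 and rho 0.26. Without the 2 farthest tumours r was -0.65, -0.58 and 0.56. For Ptprc and the spread, r was -0.61, 0.10 and 0.94 in the same groups, and rho -0.44, -0.25 and 0.83. The last pair had a permutation p of 0.00972 and 0.0583 (adjusted 0.0583 and 0.159). Without the 2 tumours farthest by Ptprc, r was -0.72, -0.30 and 0.79. Csf1r was also set against 3 genes of other cell types. With Cd3e, a T cell gene, it had r 0.74 and rho 0.63 in controls (permutation p 0.00949 and 0.0436) and r 0.79 and rho 0.77 in OTX015-treated tumours (permutation p 0.0062 and 0.0131). Without the 2 farthest tumours these r were 0.58 and 0.53. With Pecam1, of endothelium, r was 0.56 and 0.73 in these groups and rho 0.71 and 0.79 (permutation p for r 0.0751 and 0.0182, for rho 0.0178 and 0.00837), and without the 2 farthest r was 0.45 and 0.75. With Dct, of melanocytes, r was -0.72 and -0.15 and rho -0.74 and -0.13 (permutation p for r 0.0129 and 0.672, for rho 0.0131 and 0.732), and without the 2 farthest r was -0.51 and -0.29. In the 6 guadecitabine-treated tumours, Csf1r had r -0.32 with Cd3e, 0.58 with Pecam1 and 0.34 with Dct (permutation p 0.46, 0.28 and 0.50). There rho was -0.60, 0.26 and 0.54, and r without the 2 farthest -0.77, 0.92 and 0.91. For Ptprc, r with Cd3e was 0.62 in controls, -0.11 with OTX015 and -0.88 with guadecitabine. In the same order r was 0.42, 0.39 and 0.45 with Pecam1 and -0.66, 0.33 and 0.69 with Dct. The 30 relations are those of Csf1r and Ptprc with array spread, the nuclear-retained RNAs and these genes in each group. Of the 30 relations, 0 passed after adjustment, by r or rho. Without the arrays of low spread, the median r of the members with Csf1r was 0.65 in controls and 0.32 with OTX015. The part of array spread and of other cell types in the correlations was not tested further.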

How the data were processed

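RNA of 40 samples was hybridised to Affymetrix 3′ arrays, 1 array per sample. The deposited log2 values came from RMA, and the submitters' processing notes also name the Transcriptome Analysis Console, without a version. The sources used here do not say which arrays went through RMA together.

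Each gene was represented by the probe set naming it alone with the highest mean over the 40 arrays. Comparisons were fitted in R 4.3.3 by limma 3.58.1 (eBayes after lmFit, two-sided) over 17097 genes, with Benjamini-Hochberg adjustment and a call at an adjusted p under 0.05. The comparison of OTX015-treated with control tumours, and both tests of a difference between effects, used values quantile-normalized over the 45141 probe sets of the fitted arrays. The untreated groups shared 1 fit. The fit was tested on simulated data with known changes. Correlations used 100000 permutations for 10 or more tumours and the exact test for 6.

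All 34 genes could be named. Of other macrophage genes, up to 4 per direction with the smallest adjusted p could be named, and of another cell type up to 2. The members and lists were chosen with earlier results of these data known. The labels do not say whether replicates were separate cultures or animals, so p-values measure the spread between these samples, which may be technical. The number of arrays limits the precision. Alternatives covered normalization, dim genes, probe sets, variance estimation, the samples fitted, array weights, a replicate block, a stricter threshold and each array left out. Fits without 3 arrays of low spread, and with a covariate of nuclear-retained RNA, were added after seeing the data.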

Additional observations from a re-analysis of the deposited data

Results flagged for a closer look

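Each of the 34 members was tested within each group of arrays for 1 value far from the rest, 170 sets of values in all. The 11 control tumours of the OTX015 experiment were not tested. Such a value was found in 9 sets, which is near the 1 in 20 that chance alone flags. In 6 of them it was the lowest OTX015-treated tumour, replicate 1, on the deposited log2 scale. Members moved together between tumours, so these 6 are not independent. Cd68 stood at 4.58 there and the next lowest treated tumour at 6.16. Lyz2 stood at 7.06 against 9.27, and Tyrobp at 4.79 against 6.38. Ms4a7 stood at 4.82 against 5.63, Ms4a6d at 2.96 against 4.85, and Ptprc at 3.58 against 5.37. Without this tumour, 10 members instead of 16 were lower with OTX015 in tumours.

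Tyrobp in control culture 4, at 3.43, lay far below the next lowest culture, at 4.16. Apoe, which encodes a lipid-carrying protein, lay far above the other tumours of its group in guadecitabine-experiment control 1, at 10.98 against 10.60. It did so again in guadecitabine-treated tumour 4, at 11.50 against 10.59.

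The effect of OTX015 differed between tumours and cells for 5 members in the test of that difference, against 14.6% of all genes that were lower by it, a share near that of the members. The count ran from 1 to 11 with 1 array left out. The effect in tumours minus that in cells was -1.53 for Cd68, -1.62 for Ptprc, -0.52 for Spi1, -0.74 for Lgmn and -0.48 for Apoe on the log2 scale.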

How the results depend on the processing

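No call of a member reversed its direction outside 1 alternative, in which the nuclear-retained RNA level of each array was a covariate in the comparison of both sets of control tumours. There 0 of 22 calls remained, and 8 members turned positive: Csf1r at 0.29, Tyrobp at 0.067, Ms4a6d at 0.010, Trem2 at 0.25, Spi1 at 0.12, Aif1 at 0.056, Coro1a at 0.52 and Nckap1l at 0.25. The covariate did not overlap between those groups, nor between either control tumour group and cells, nor between cells with and without OTX015, so covariate and group could hardly be told apart in these fits. Of all genes, 1 was called between both sets of controls. For guadecitabine-experiment controls against cells, 17 members were called, and all genes fell from 5793 to 1671. For OTX015 in cells 0 members were called, and all genes fell from 6635 to 208. For the difference between tumours and cells 1 member was called. For OTX015 in tumours, where the covariate overlapped, 9 members were called, and all genes fell from 2763 to 2387. The comparison of both sets of control tumours fell to 7 calls with the replicate number as a block and to 11 at an adjusted p under 0.01.

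For OTX015 in tumours, the deposited values gave 31 calls. Those values lay lower over all probe sets in OTX015-treated tumours, so counts on them are not a result about the members alone. Array weights gave 10, leaving out the 3 arrays of low spread 10, and an adjusted p under 0.01 gave 3. For OTX015 in cells, quantile normalization gave 5 calls, a robust variance trend 6, array weights 7 and all 6 groups in 1 fit 0. For the difference between tumours and cells, the deposited values gave 14 calls, array weights 10, the replicate block 3 and the stricter threshold 0. For the difference between the drugs, the deposited values gave 9 calls. With Ptprc in place of Csf1r, the median correlation in OTX015-treated tumours was 0.70. The cause of these changes was not tested.

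With 1 array left out at a time, calls ranged from 32 to 34 and from 21 to 25 for the tumours of the OTX015 and guadecitabine experiments against cells, and from 16 to 24 between both sets of controls. They ranged from 3 to 5 for OTX015 in cells, from 9 to 19 for OTX015 in tumours and from 1 to 11 for the difference between tumours and cells. The median correlation with Csf1r ranged from 0.69 to 0.82 in controls, 0.27 to 0.50 with OTX015 and 0.11 to 0.74 with guadecitabine. Same-numbered samples had median correlations of 0.01 in cells, 0.03 in tumours of the OTX015 experiment and -0.09 in those of the guadecitabine experiment. The correlations ran from -0.13 to 0.24, from -0.64 to 0.50 and from -0.44 to -0.07. In cells 2 of 4 pairs matched best with their own number. The main fits treated no samples as pairs, and these values cannot exclude a pairing. With the replicate block OTX015 in tumours kept 12 calls.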

Other observations

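Over the 11 control tumours of the OTX015 experiment, 8 genes outside the member list followed the mean of the 25 members above background most closely, by Pearson's r. Alox5ap, an activator of leukotriene synthesis, had an r of 0.99. Ccl9, a chemokine, Sh3bgrl3, Lilrb4a, an inhibitory leukocyte receptor, C3ar1, a complement receptor, and Plp2 had an r of 0.98. Pid1 and Fcer1g, the shared signalling chain of Fc receptors, had an r of 0.97. In the 10 OTX015-treated tumours the r ranged from 0.62 for Plp2 to 0.99 for Lilrb4a, and in the 6 guadecitabine-treated tumours from 0.67 for Plp2 to 0.98 for Alox5ap. Tumours of a group share their experiment, and the values are given as a description.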
